A study of Mus musculus with 27 samples.

Results

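The genes described here are 9 repressors of the circadian clock, *Per1*, *Per2*, *Per3*, *Cry1*, *Cry2*, *Cipc*, *Ciart*, *Bhlhe40* and *Bhlhe41*, out of 46078 genes with counts. They were chosen by name, as the negative limb of the clock, on account of how they moved with dose in these same mice. Their differences from vehicle and between doses are therefore a description and carry no test. RNA-Seq read counts came from scrapings of the distal ileal epithelium of male C57BL/6 mice on postnatal day 56. Sesame oil vehicle was gavaged to 3 mice, and TCDD to 3 mice at each of 8 doses, namely 0.01 and 0.03, 0.1 and 0.3, 1 and 3, and 10 and 30 µg/kg. Mice were dosed at intervals of 4 d over 28 d. TCDD is a dioxin that stays in the body for long and activates AhR, a transcription factor. Mice are named by the numbers in the sample labels, and no genetic modification or surgery is described for any of the 27.

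In the clock of mammalian cells, BMAL1 (encoded by *Arntl*) pairs with CLOCK or NPAS2, binds E-boxes and drives transcription of the *Per* and *Cry* genes. PER and CRY proteins accumulate, enter the nucleus together and repress that pair, so their own transcription falls again and a daily cycle results. The REV-ERB receptors (*Nr1d1*, *Nr1d2*) repress *Arntl*, while DBP, TEF and HLF activate genes with D-boxes, a site that NFIL3 represses. Clocks run in most tissues, the intestinal epithelium among them, and can be set by feeding and by glucocorticoids. The paper states that mice shared cages, were kept on a light and dark cycle and were fasted before tissue was collected. The labels used here give neither the hour at which each mouse was killed nor its cage. Dose therefore cannot be told apart from the hour of collection or from the cage.

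The library indexes recorded with the files were each used once in the 16 mice from vehicle to 0.3 µg/kg plus mouse 41 at 1 µg/kg, and again in the other 11 mice. That these are separate sequencing pools is an inference from the reuse. Apart from the 1 µg/kg group, dose and index use cannot be told apart. Genes took 12.26 to 17.14 M counts in each mouse (median 14.14 M). Enterocyte markers were detected in every mouse (summed level 6352 to 14997 CPM at 30 µg/kg), and hepatocyte markers summed to at most 1.15 CPM in any mouse. Positions of genes below are those of GENCODE M21 on GRCm38. A lower level in these bulk scrapings can be fewer cells of a type or less RNA per cell, which cannot be told apart.

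Promoter sequence from RefSeq (GRCm38.p6, 250 bases before to 50 after a start site) matched 7 of the 9 repressors, at 9 start sites. *Per2* and *Bhlhe40* had no entry and were not searched. The stretches below are shown because they hold the E-box bound by the BMAL1 pair or the D-box bound by DBP, TEF, HLF and NFIL3. Capitals mark CACGTG (E-box) or TTATGTAA or TTATGCAA (D-box), each searched on both strands, and every stretch reads 5′ to 3′ on the gene's own strand.
*Ciart* (chr3:95882259-95882358, minus strand): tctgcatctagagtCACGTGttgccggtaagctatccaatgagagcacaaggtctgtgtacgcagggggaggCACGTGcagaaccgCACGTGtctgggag
*Cry1* (chr10:85185085-85185134, minus strand): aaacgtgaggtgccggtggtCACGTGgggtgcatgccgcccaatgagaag
*Per1* (chr11:69098769-69098938, plus strand): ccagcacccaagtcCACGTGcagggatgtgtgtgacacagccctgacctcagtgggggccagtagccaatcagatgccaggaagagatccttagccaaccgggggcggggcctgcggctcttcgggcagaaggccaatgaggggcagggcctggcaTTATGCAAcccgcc
*Per3* (chr4:151044806-151044880, minus strand): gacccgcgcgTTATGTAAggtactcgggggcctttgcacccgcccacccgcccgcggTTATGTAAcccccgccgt
*Bhlhe41* (chr6:145865561-145865595, minus strand): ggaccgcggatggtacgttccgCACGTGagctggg

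The E-box occurred in 5 of the 9 promoters, those of *Per1* (first start site), *Cry1*, *Cipc* (second start site), *Ciart* and *Bhlhe41*, and in 7.15% of all 32851 promoters of the same length. *Ciart* held 3 E-boxes, starting 116, 58 and 44 bases before its start site. The D-box occurred in 2 of the 9 promoters and in 1.66% of all promoters. *Per3* had 2 D-boxes and no E-box in this window. *Per1* had 1 D-box, starting 24 bases before its first start site. The core of the AhR site, GCGTG, which overlapped no E-box or D-box in these promoters, was present in 8 of the 9 but also in 32.4% of all promoters. The REV-ERB and ROR site TAGGTCA and the CREB site TGACGTCA were in 0 of the 9, against 2.61% and 1.79% of all promoters. A match says only that these letters are in the window.

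**Figure D1:**
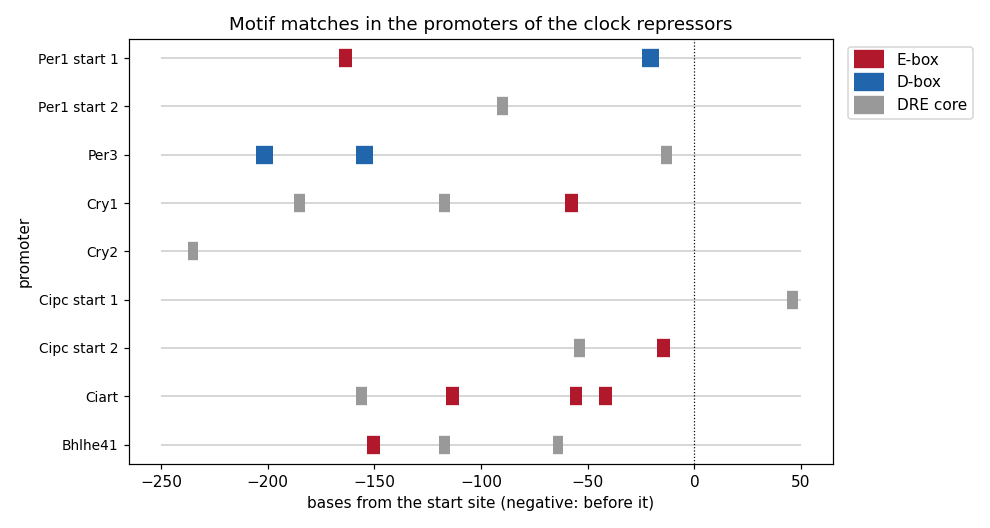
Positions of motif matches in 9 promoters of 7 clock repressors, in bases from the start site (x axis, negative before it), with 1 line per promoter. E-boxes are red, D-boxes blue and GCGTG cores grey. *Ciart* has 3 E-boxes and *Per3* has 2 D-boxes.

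In vehicle mice the repressors differed widely in level per length, taken as CPM divided by the kilobases covered by a gene's exons. *Bhlhe40* (14.0 ± 1.56 CPM per kb, mean ± SD, n = 3) and *Cry1* (13.7 ± 1.41) stood highest, and with this length these neighbours did not differ beyond their spread. *Cipc* (6.80 ± 0.294), *Per1* (5.01 ± 0.313), *Per2* (3.57 ± 0.183) and *Cry2* (2.14 ± 0.338) followed, with no overlap between neighbouring genes. *Per3* (0.624 ± 0.0671) was far lower. *Bhlhe41* (0.333 ± 0.146) and *Ciart* (0.168 ± 0.0396) closed the order, and their ranges overlapped. With the length of the longest transcript instead, *Per3* rose to 0.999 CPM per kb and *Bhlhe40* to 21.2, and the order of the means was kept, but the ranges of *Per2* and *Cry2* then overlapped. Those of *Bhlhe40* (18.9 to 23.6) and *Cry1* (14.2 to 17.0) then did not.

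**Figure D2:**
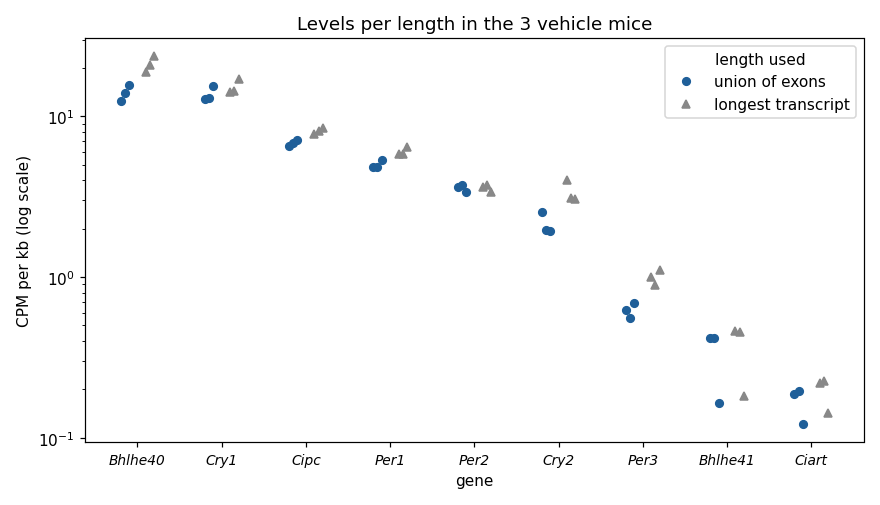
Level of each repressor in the 3 vehicle mice, in CPM per kb on a log axis, with 1 point per mouse. Circles use the union of a gene's exons and triangles its longest transcript. Means run from 14.0 (*Bhlhe40*) to 0.168 (*Ciart*) with the exon union.

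At the higher doses most of the repressors were above vehicle, while *Cry1* was below it and the BHLHE repressors stayed near it. A gene is counted as called where its adjusted p did not exceed 0.05 and its fold reached 1.5 (edgeR, over 16741 genes, 9 of 9 repressors tested). At 1 µg/kg, 3 were called higher, against 0.4% of all genes, and 1 lower, against 0.191%. At 3 µg/kg, 5 were called higher (0.645% of all genes) and 1 lower (0.46%). At 10 µg/kg, 6 were called higher (1.76%) and 1 lower (0.771%), as again at 30 µg/kg (5.42% and 3.98%). Since the genes were chosen on these contrasts, nothing is read from the counts. The median log2 fold change of the 9 was 0.77, 1.32, 1.48 and 1.70 at 1, 3, 10 and 30 µg/kg, against 0.00, 0.00, 0.00 and 0.02 over all genes. At the 4 lowest doses edgeR called 0 of the 9 and 0% of all genes. There, *Per3* at 0.01, *Cry2* at 0.1 and *Cry1* at 0.3 µg/kg had an unadjusted p under 0.05, as did 4.18%, 3.53%, 6.19% and 7.45% of all genes at the 4 doses in rising order. DESeq2 called 0 of the 9 at each of these doses and 0.0179%, 0%, 0.0299% and 0.108% of all genes.

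**Figure D3:**
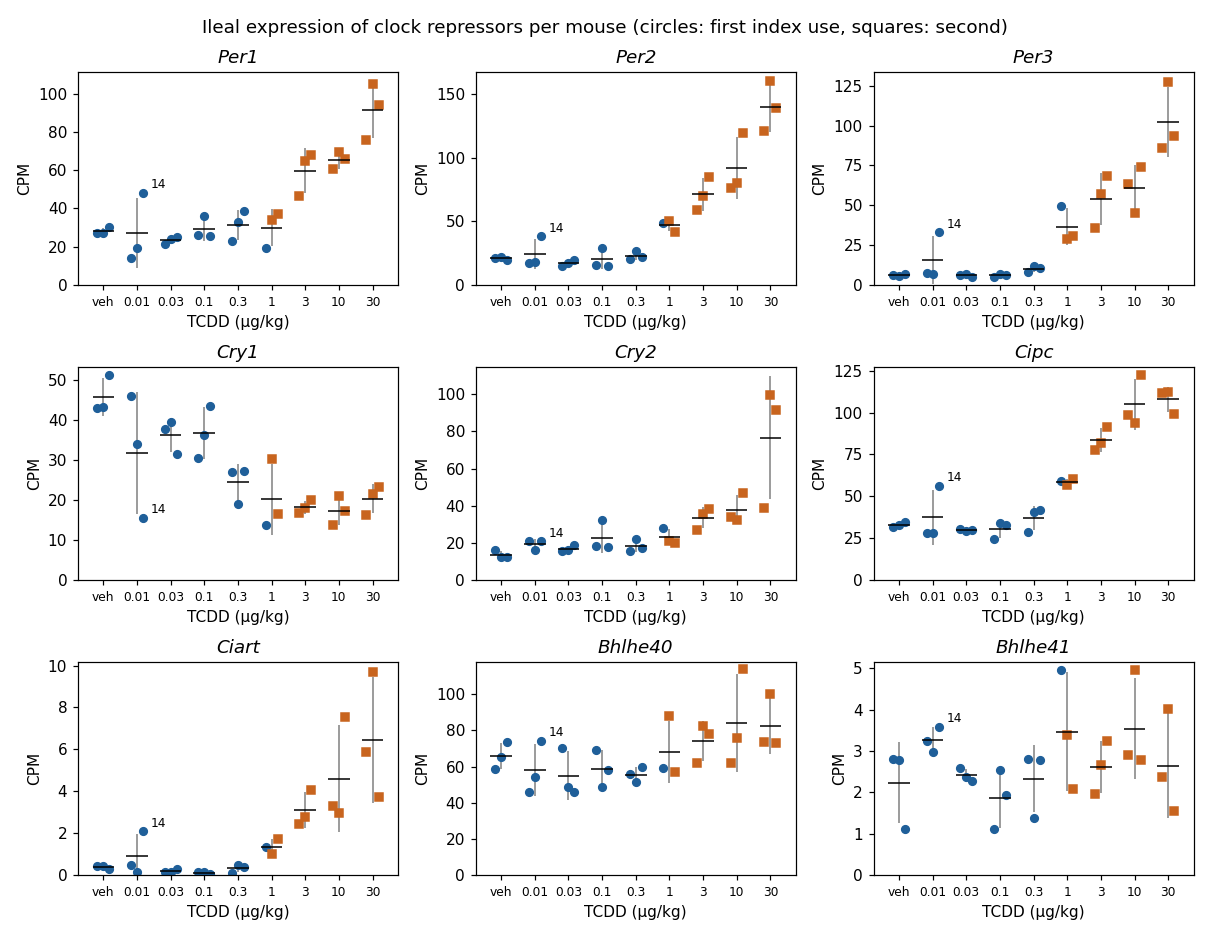
Expression of each repressor in every mouse (y axis, CPM from 0) by TCDD dose (x axis, µg/kg, evenly spaced). Horizontal lines are means of 3 mice, vertical lines ± SD, circles the first and squares the second use of the library indexes, and 14 marks mouse 14. *Per3* and *Ciart* are near 0 from vehicle to 0.3 µg/kg except in mouse 14, while *Cry1* falls from above 40 to near 20 CPM.

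The PER proteins carry the daily rhythm of the repressive complex, and their 3 genes differed in how far they moved. *Per3* (ENSMUSG00000028957, chr4:151003652-151044665, minus strand) was at 5.98, 5.35 and 6.64 CPM in the vehicle mice (2, 3 and 4) and at 86.2, 127 and 93.3 CPM at 30 µg/kg (mice 65, 67 and 68). It was at 49.7, 28.8 and 31.0 CPM at 1 µg/kg, at 36.0, 57.2 and 68.1 at 3 µg/kg and at 63.1, 44.9 and 73.7 at 10 µg/kg. All 12 mice from 1 µg/kg upward were thus above all vehicle mice. The log2 fold change was 2.61 (SE 0.42), 3.16 (0.42), 3.33 (0.42) and 4.09 (0.43) in order of dose, the last a fold of 17.0. At 0.3 µg/kg the 3 mice (8.16, 11.9 and 10.6 CPM) also lay above vehicle, but the log2 fold change of 0.76 (SE 0.44) was not called. *Per3* lies within the span of *Camta1* on the same strand. *Camta1* had 60 to 133 counts per mouse, not scaled for depth. Its counts at 0.3 µg/kg (94 to 129) and 1 µg/kg (90 to 133) lay above those of the vehicle mice (60 to 89). At 3 µg/kg (65 to 119), 10 µg/kg (70 to 88) and 30 µg/kg (72 to 95) they overlapped them. The part of *Camta1* reads in the counts of *Per3* was not tested.

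*Per2* (ENSMUSG00000055866, chr1:91415982-91459324, minus strand), which glucocorticoids and CREB can also induce, was at 21.3, 21.8 and 19.7 CPM in vehicle mice. It reached 48.6, 49.9 and 41.8 CPM at 1 µg/kg, 59.2, 70.0 and 85.0 at 3 µg/kg, 76.1, 79.8 and 120 at 10 µg/kg and 121, 160 and 139 at 30 µg/kg. None of these 12 mice overlapped the vehicle mice. The log2 fold change was 1.16 (SE 0.26), 1.77 (0.26), 2.13 (0.26) and 2.74 (0.26), the last a fold of 6.70. *Per1* (ENSMUSG00000020893, chr11:69095217-69109960, plus strand) was at 27.2, 27.1 and 30.2 CPM in vehicle mice and, unlike *Per2* and *Per3*, spanned that range at 1 µg/kg (19.1, 33.7 and 37.0 CPM). It was above vehicle in each mouse at 3 µg/kg (46.5, 65.0 and 67.9 CPM), 10 µg/kg (60.5, 69.4 and 65.9) and 30 µg/kg (75.8, 105 and 94.0). Its log2 fold change was 0.08 (SE 0.30) at 1 µg/kg, 1.08 (0.30) at 3, 1.21 (0.30) at 10 and 1.70 (0.30) at 30 µg/kg.

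The CRY proteins hold the BMAL1 pair in its repressed state, and their 2 genes lay on opposite sides of vehicle. *Cry1* (ENSMUSG00000020038, chr10:85131700-85185064, minus strand) was at 43.0, 43.4 and 51.4 CPM in vehicle mice and at 16.3, 21.5 and 23.4 CPM at 30 µg/kg. It was already at 27.1, 19.1 and 27.4 CPM at 0.3 µg/kg, below every vehicle mouse, though the log2 fold change of -0.90 (SE 0.28) was not called. From 1 to 30 µg/kg its log2 fold change stayed between -1.40 and -1.17, so it reached its lower level by 1 µg/kg. At 1 µg/kg the mice were at 13.7, 30.3 and 16.6 CPM, and at 3 and 10 µg/kg between 13.8 and 21. *Cry2* (ENSMUSG00000068742, chr2:92403646-92434043, minus strand) was at 16.0, 12.4 and 12.2 CPM in vehicle mice, at 27.1, 35.7 and 38.2 at 3 µg/kg and at 34.2, 32.5 and 46.9 at 10 µg/kg. At 30 µg/kg it was at 38.6 CPM in mouse 65 but at 99.5 and 91.7 in mice 67 and 68. The log2 fold change was 0.77 (SE 0.28) at 1, 1.32 (0.28) at 3, 1.48 (0.28) at 10 and 2.50 (0.28) at 30 µg/kg.

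Mouse 65 also differed from mice 67 and 68 in its cell type markers. Its smooth muscle markers summed to 322 CPM, against 74.3 and 34.9, and its enterocyte markers to 6352 CPM, against 14997 and 12482. The part of cell composition in the spread of *Cry2* at 30 µg/kg was not tested.

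CIPC and CIART (CHRONO) bind the BMAL1 pair and lower its activity without being PER or CRY proteins, and both genes were well above vehicle. *Cipc* (ENSMUSG00000034157, chr12:86947043-86965362, plus strand) was at 31.7, 33.0 and 34.5 CPM in vehicle mice. It was at 59.0, 56.9 and 60.5 CPM at 1 µg/kg, 77.6, 82.0 and 91.3 at 3 µg/kg, 98.6, 93.9 and 122 at 10 µg/kg and 112, 112 and 99.2 at 30 µg/kg. The ranges at 10 and 30 µg/kg overlapped, and the step between them was 0.04 (SE 0.18) on the log2 scale. *Ciart* (ENSMUSG00000038550, chr3:95878503-95882251, minus strand), whose promoter carries the 3 E-boxes shown above, had only 6, 6 and 4 counts in vehicle mice and 82, 125 and 46 counts at 30 µg/kg. Its log2 fold change was 1.83 (SE 0.65) at 1, 3.01 (0.61) at 3, 3.57 (0.60) at 10 and 4.06 (0.59) at 30 µg/kg, the last a fold of 16.6 from a low base. The antisense gene *C920021L13Rik* covers *Ciart*, and reads of the 2 cannot be told apart if strand was not used in counting. The antisense gene had 11 to 17 counts in vehicle mice. It had 10 to 28 at 1 µg/kg, 15 to 19 at 3, 10 to 13 at 10 and 6 to 17 at 30 µg/kg, and each range overlapped vehicle. At 1 µg/kg *Ciart* itself had only 13 to 28 counts, within the range of the antisense gene there. Of the 50-base stretches of *Ciart* transcripts, 11.9% also occur in another gene (ENSMUSG00000112850), so its level is uncertain.

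BHLHE40 and BHLHE41 (DEC1 and DEC2) compete with the BMAL1 pair for E-boxes, and these were the repressors with no call at any dose. *Bhlhe40* (ENSMUSG00000030103, chr6:108660629-108666925, plus strand) was at 58.9, 65.2 and 73.5 CPM in vehicle mice and at 73.8, 100 and 73.3 at 30 µg/kg, a log2 fold change of 0.32 (SE 0.22) with overlapping groups. *Bhlhe41* (ENSMUSG00000030256, chr6:145858243-145865558, minus strand) was at 2.82, 2.79 and 1.11 CPM in vehicle mice and at 2.36, 4.02 and 1.55 at 30 µg/kg (0.25, SE 0.40). With 16 to 40 counts per vehicle mouse, a change in *Bhlhe41* of the size seen in *Cipc* cannot be judged as precisely. Genes on the opposite strand that overlap *Bhlhe40* and *Cry2* had 0 to 6 counts per mouse. Over the 8 doses the log2 fold changes ran from -0.26 to 0.35 for *Bhlhe40* and from -0.27 to 0.67 for *Bhlhe41*.

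**Figure D4:**
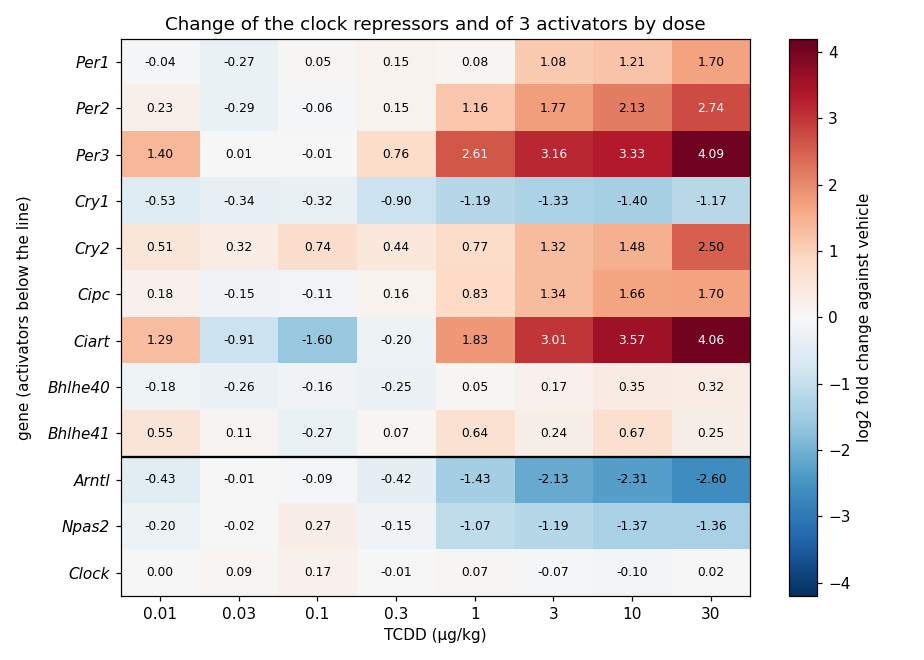
Log2 fold change against vehicle (colour and printed value) of the 9 repressors and, under the line, of 3 activators, at 8 TCDD doses (x axis, µg/kg, 3 mice each, edgeR). From 1 µg/kg, *Per2*, *Per3*, *Cry2*, *Cipc* and *Ciart* are above 0 and *Cry1*, *Arntl* and *Npas2* below it, while *Clock* lies between -0.10 and 0.17 at every dose.

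Doses from 3 to 30 µg/kg all lay within the second use of the library indexes. The log2 difference between 30 and 3 µg/kg was 1.18 (SE 0.26) for *Cry2*, 1.04 (0.46) for *Ciart*, 0.97 (0.24) for *Per2*, 0.93 (0.36) for *Per3* and 0.61 (0.29) for *Per1*. It was smaller for *Cipc* (0.37, SE 0.18), *Cry1* (0.15, 0.29), *Bhlhe40* (0.15, 0.22) and *Bhlhe41* (0.01, 0.39). In this contrast edgeR called *Cry2* and *Per2* and none of the other repressors. The share of all genes called in it is not given here. Since the genes were chosen for how they moved with dose, nothing is read from these calls. Whether the genes differed from each other was not tested. *Cry2* of mouse 65 at 30 µg/kg (38.6 CPM) was close to the highest mouse at 3 µg/kg (38.2). At 1 µg/kg, mouse 41 shared the first index use with the vehicle mice. It had more *Per3* (49.7 CPM), *Per2* (48.6), *Cipc* (59.0) and *Ciart* (1.35) and less *Cry1* (13.7) than any vehicle mouse. Its *Per1* (19.1 CPM), in contrast, was below every vehicle mouse. Only the 1 µg/kg group held both index uses, so an index covariate is set by mouse 41 against mice 43 and 44 alone. With it, values at 1 µg/kg compare mouse 41 with vehicle, and those at higher doses shift with this mouse. Such a fit cannot tell index use apart from the spread among mice. With index use as a covariate, 1, 1, 3 and 6 of the 9 were called at 1, 3, 10 and 30 µg/kg, in place of 4, 6, 7 and 7. In that fit 0.185%, 0.0358%, 0.287% and 2.88% of all genes were called. *Per3* was called at all 4 doses. The calls lost at 3 µg/kg had a log2 fold change of 1.85 for *Per2* (1.77 without the covariate), -2.09 for *Cry1* (-1.33), 1.76 for *Cry2* (1.32), 1.35 for *Cipc* (1.34) and 2.99 for *Ciart* (3.01). *Per1* differed from these, with 0.32 in place of 1.21 at 10 µg/kg and 0.81 in place of 1.70 at 30 µg/kg. At 1 µg/kg its level was 19.1 CPM in mouse 41, against 33.7 and 37.0 in mice 43 and 44. The calls at 1 µg/kg also depended on single mice. Leaving out any vehicle mouse, mouse 41 or mouse 44 left only *Per3* called, and leaving out mouse 43 left *Per3* and *Cry1*. Calls were also lost at 3 µg/kg without vehicle mouse 4 and without mouse 52. The share of all genes called in these fits is not given here, so a general loss of calls cannot be told apart.

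Mouse 14, given 0.01 µg/kg, had several repressors outside the range of the other 14 mice at vehicle to 0.3 µg/kg. How many of all genes lay outside that range in this mouse was not counted. Its *Per3* was at 33.1 CPM, against a lowest, median and highest value of 4.77, 6.62 and 11.9 in the others. Its *Ciart* was at 2.1 CPM (31 counts), against 0.067, 0.218 and 0.507. *Per1* (48.1 CPM against at most 38.5), *Per2* (38.3 against at most 29.3) and *Cipc* (56.2 against at most 42.1) were likewise above all of the others. *Cry1* was below all of them, at 15.7 CPM against at least 19.1. *Cry2* (20.8 CPM) was within their range, 12.2 to 32.1. *Bhlhe40* (74.1 against at most 73.5) and *Bhlhe41* (3.59 against at most 3.24) were only just above it. Against the 3 mice at 1 µg/kg, *Per3*, *Cry1*, *Cry2*, *Bhlhe40* and *Bhlhe41* of mouse 14 were within the range. *Per1* (at most 37.0 CPM in those 3) and *Ciart* (at most 1.71) of mouse 14 were above it, and *Per2* (at least 41.8) and *Cipc* (at least 56.9) below it.

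The same mouse had *Arntl* at 15.7 CPM (38.5 to 65.3 in the other 14), *Nr1d1* at 149 CPM (2.77 to 88.2) and *Dbp* at 27.6 CPM (0.346 to 4.94). *Cyp1a1*, a direct target of AhR, had 0 counts in it and at most 0.887 CPM in the other 14, while the mice at 1 µg/kg had 3.32 to 6.30 CPM. Its library was not shallow (14.27 M reads on genes), and its summed markers of enterocytes (8706 CPM) were at the lower end of its dose group. Its smooth muscle markers summed to 152 CPM, between those of mice 9 and 11 at the same dose (105 and 189 CPM). The part of cell composition or hour of collection in these levels was not tested. Without mouse 14, a fit chosen after seeing the data, the log2 fold change at 0.01 µg/kg was 0.21 in place of 1.40 for *Per3* and -0.28 in place of 1.29 for *Ciart*. For *Per1* it was -0.76 (SE 0.25) in place of -0.04.

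Whether the repressors and *Arntl* moved together among mice given the same dose is a question that the choice of genes did not use. Each mouse's log2 CPM was taken as a deviation from the mean of its dose group, and the deviations of *Arntl* were permuted within dose groups (100000 permutations, two-sided, adjusted over 9 genes). *Per3* had a Pearson r of -0.87 (permutation p = 0.00058, adjusted 0.00504) and a Spearman rho of -0.71 (p = 0.00181, adjusted 0.00543) over 27 mice. *Cipc* had an r of -0.80 (permutation p = 0.00112, adjusted 0.00504) and a rho of -0.78 (p = 0.00093, adjusted 0.00418). *Ciart* had an r of -0.80 (permutation p = 0.00212, adjusted 0.00636) and a rho of -0.83 (p = 0.00062, adjusted 0.00418). These 3 genes were thus high in mice with low *Arntl* for their dose.

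Mice 9 and 14, both at 0.01 µg/kg, deviated farthest in *Arntl*, by 0.74 and -1.27 on the log2 scale. At 63.5 CPM, *Arntl* of mouse 9 was within the range of the vehicle mice (56.7 to 65.3). Its deviation thus reflects a group mean lowered by mouse 14 (15.7 CPM). Without mice 9 and 14, mouse 11 was alone at its dose and dropped out, leaving 24 mice. The r was then -0.66 for *Per3* (adjusted permutation p = 0.0301), -0.51 for *Cipc* (0.0124) and -0.69 for *Ciart* (0.0124). *Cry1* varied in the same direction as *Arntl*, with an r of 0.82 (permutation p = 0.00926, adjusted 0.0208) and a rho of 0.61 (p = 0.0191, adjusted 0.0379). In the 24 mice its r was 0.65 with an adjusted permutation p of 0.136, no longer past the threshold though close in size to that of *Per3*. *Per2* had an r of -0.64 (permutation p = 0.0203, adjusted 0.0365) and a rho of -0.55 (p = 0.0210, adjusted 0.0379), and an r of -0.29 (adjusted permutation p = 0.202) in the 24 mice. The relation of *Per2* rested on the mice left out.

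*Per1* (r -0.52, adjusted permutation p = 0.361), *Cry2* (-0.23, 0.335), *Bhlhe40* (-0.29, 0.363) and *Bhlhe41* (-0.13, 0.492) did not pass the test. Their Spearman rho was -0.34 (p = 0.198, adjusted 0.254), -0.35 (p = 0.118, adjusted 0.178), -0.25 (p = 0.323, adjusted 0.364) and -0.14 (p = 0.557, adjusted 0.557), all from permutations. Without mice 9 and 14 the r of these genes was 0.14, -0.28, 0.015 and -0.12. Within the first index use (15 mice, since mouse 41 was alone at its dose) the r was -0.93 for *Per3*, -0.88 for *Cipc* and -0.84 for *Ciart*, each with an adjusted permutation p of 0.120. Within the second (11 mice, mouse 14 not among them) it was -0.91 for *Ciart* (adjusted permutation p = 0.0108), -0.84 for *Cipc* (0.0108) and -0.60 for *Per3* (0.121). For *Cry1* the r was 0.89 in the first (adjusted permutation p = 0.0989) and 0.55 in the second (0.537), and for *Per2* it was -0.76 (0.0989) and -0.38 (0.537). All 5 genes thus had the same direction within both uses, and *Cipc* and *Ciart* passed the threshold in the second.

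**Figure D5:**
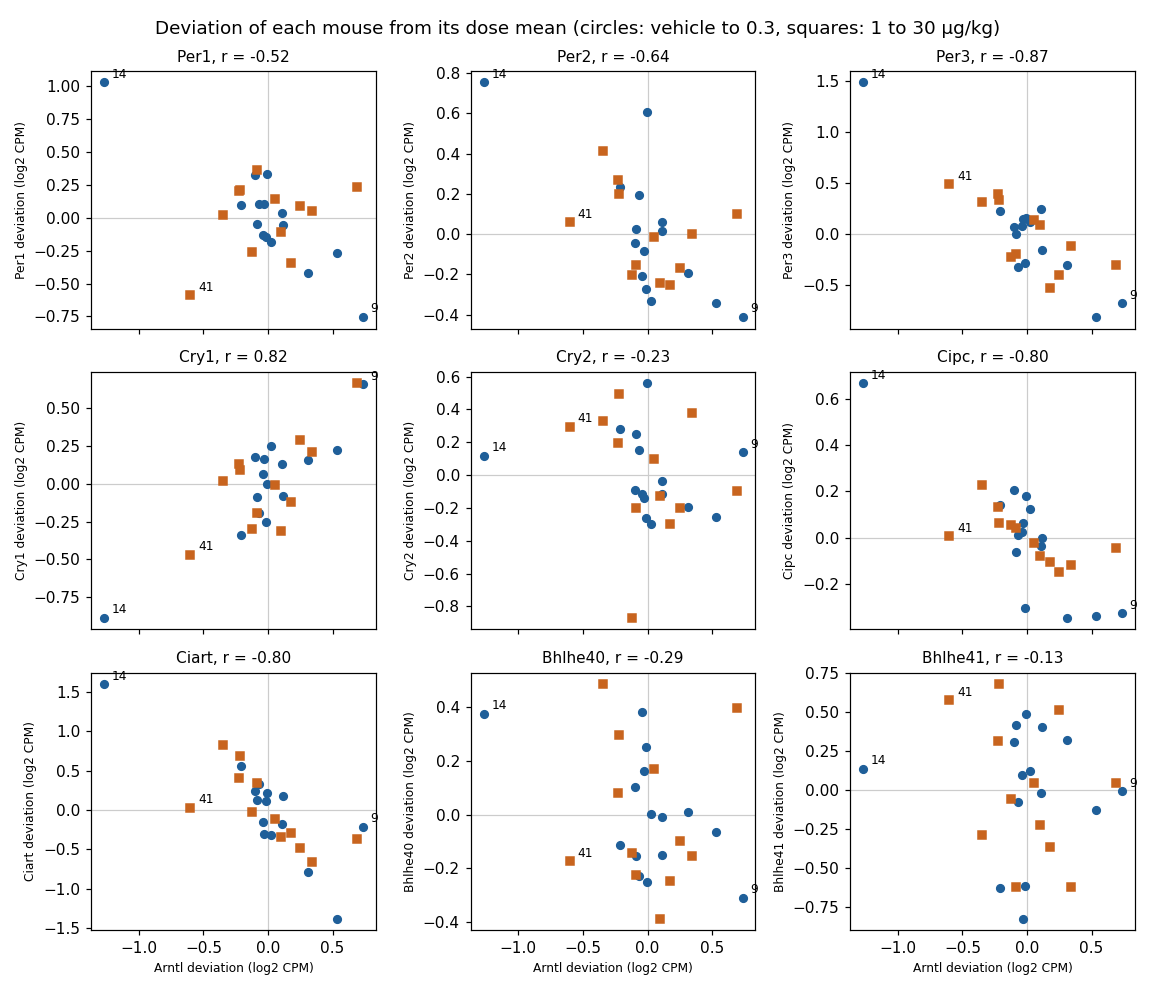
Deviation of each mouse from the mean of its dose group, in log2 CPM, for 9 repressors (y axes) against *Arntl* (x axis), with 1 point per mouse. Circles are mice at vehicle to 0.3 µg/kg, squares those at 1 to 30 µg/kg, and mice 9, 14 and 41 are numbered. *Per3*, *Cipc* and *Ciart* slope downward and *Cry1* upward, and mouse 14 lies far from the others.

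Of the other clock genes, the lists below were written with earlier results known. At 30 µg/kg 5.42% of all genes were called higher and 3.98% lower. Among 6 activators at 30 µg/kg, *Arntl* (log2 fold change -2.60, SE 0.35) and *Npas2* (-1.36, SE 0.29), which can take the place of CLOCK, were lower and 1 was higher. *Clock* (0.02, SE 0.11) was not called. Of the 6 REV-ERB and output genes, 5 were higher, *Dbp* (6.29, SE 0.98), *Nr1d1* (4.02, 0.67), *Tef* (3.92, 0.50), *Nr1d2* (3.39, 0.46) and *Hlf* (3.01, 0.51). *Nfil3*, the repressor at D-boxes, was lower (-2.32, SE 0.45). At 1 µg/kg 4 of these 6 were already higher (0.4% of all genes) and *Nfil3* lower (0.191%). Of 10 modifiers of PER and CRY proteins (kinases, F-box proteins, deubiquitinase and others), 2 were higher at 30 µg/kg. One of them was *Usp2* (0.98, SE 0.16), a deubiquitinase and the only one of the 10 called at 3 or 10 µg/kg. The casein kinase genes *Csnk1d* (0.09, SE 0.08) and *Csnk1e* (0.49, SE 0.14), which phosphorylate PER proteins, were not called. Of 4 other clock-controlled genes, 3 were tested, and *Wee1* (0.97, SE 0.23), a cell cycle kinase, and *Por* (0.98, SE 0.20), the partner of cytochromes P450, were higher.

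Genes that respond to other signals also differed at 30 µg/kg, where 5.42% of all genes were called higher and 3.98% lower. Of 6 glucocorticoid-responsive genes 5 were higher, *Zbtb16* (4.02, SE 0.53), *Fkbp5* (2.22, 0.25), *Tsc22d3* (1.82, 0.31), *Sgk1* (1.36, 0.43) and *Klf9* (1.03, 0.15). The mice at 30 µg/kg spread widely in *Zbtb16* (11.5 to 63.7 CPM), *Tsc22d3* (43.8 to 172) and *Sgk1* (319 to 1082). The highest vehicle mouse had 309 CPM of *Sgk1*. Of 6 tested genes of the AhR battery 5 were higher, *Cyp1a1* (13.74, SE 0.73), *Cyp1b1* (6.01, 0.32), *Ahrr* (4.90, 0.16), *Ugt1a6a* (1.69, 0.17) and *Tiparp* (0.86, 0.15). The vehicle level of *Cyp1a1* was at most 0.211 CPM, so that its fold depends on the prior count. Of 5 immediate early genes, *Egr1* was lower (-1.19, SE 0.29), and of 5 hypoxia genes *Bnip3* was higher (1.08, SE 0.21). Among the markers of other cell types, 3 of 5 enteroendocrine genes were higher (summed level 170 to 188 CPM, against 85.7 to 101 in vehicle mice). In plasma cells 2 of 4 were lower (382 to 504 CPM, against 628 to 725), and in ileal enterocytes 1 of 4 was higher and 1 lower. None of the markers of enterocytes, goblet cells, Paneth cells, T or B lymphocytes, smooth muscle, stroma, endothelium, macrophages, neurons and glia (1 of 4 tested) or hepatocytes (1 of 3 tested) was called. The summed goblet markers were nevertheless above vehicle (20797 to 23477 CPM) in each mouse at 10 µg/kg (26703 to 31126) and 30 µg/kg (29132 to 31831). The part of these signals and cells in the levels of the repressors was not tested.

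Over all 27 mice, the genes most like each repressor were found by Pearson's r of log2 CPM, which mixes the spread between doses with that within them. *Per2*, *Cipc* and *Per3* were close to each other (r 0.97 for *Per2* and *Cipc*, 0.97 for *Per3* and *Cipc*, 0.96 for *Per2* and *Per3*). *Ciart* followed *Cipc* (0.97) and *Per2* (0.96). *Per3* was also near *Tef* (0.97), and *Arntl* was the gene most opposed to *Per3* (-0.98) and to *Cipc* (-0.97). The gene most opposed to *Per2* was *E2f2* (-0.96), and to *Ciart* it was *St5* (-0.97). *Per1* was most like *Herpud1* (0.94) and *Cyp2j6* (0.91) and most unlike *Gtf2ird1* (-0.87). Its r with *Per2* (0.90) and *Cipc* (0.89) was little lower. *Cry2* was most like *Osbpl3* (0.94) and *Fmo5* (0.94) and most unlike *Ddah1* (-0.92). *Cry1* was most like *Ypel2* (0.90) and *Tmem252* (0.90). *Bhlhe40* (*Tmc7* 0.86, *Avpi1* 0.84, *Map3k4* -0.79) and *Bhlhe41* (*Tspan4* 0.74, *Pde4a* 0.68, *Alas1* -0.63) had weaker partners.

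Among mice of the same dose, the pairs of repressors kept part of this. The correlation of their deviations over 27 mice was 0.84 for *Per3* and *Cipc*, 0.80 for *Cipc* and *Ciart*, 0.76 for *Per2* and *Cipc* and 0.75 for *Per1* and *Cipc*. For *Cry1* it was -0.58 with *Per3* and -0.57 with *Ciart*, and for *Cry1* and *Cry2* it was -0.01. *Bhlhe40* and *Bhlhe41*, which encode close relatives, had 0.05. These points share a library and, for mouse 14, a single mouse far from the rest, so the values are a description.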

How the data were processed

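Ileal RNA-Seq libraries of 27 mice were analysed. Per the labels' processing notes, reads were checked with FastQC 0.11.3, trimmed with Trimmomatic 0.33, aligned to GRCm38 with TopHat2 2.1.0, handled with SAMtools 1.2.0 and counted with HTSeq 0.6.1. The authors deposited raw counts per Ensembl gene, 1 table per mouse, without normalization. Whether strand was used in counting is not given in the sources used here, and 44.5% to 49.5% of uniquely aligned reads matched no feature. Symbols came from GENCODE M21 (45143 of 46078 genes).

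Counts were filtered with filterByExpr (minimum count 10, total 15), normalized by TMM and fitted with edgeR 4.0.16 in R 4.3.3 over 9 groups with no covariate. The p-values of a dose were adjusted over all tested genes (Benjamini-Hochberg), and SE was the log2 fold change divided by the square root of F. CPM used TMM library sizes, and log2 CPM a prior count of 2. Scripts were tested on simulated data. Alternatives were DESeq2 1.42.0, other normalizations, filters and priors, index use, and leaving out mice.

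The genes and lists were chosen with earlier results of these data known. Named are the 9 repressors, list genes called at 30 µg/kg, and for each repressor the 2 tested genes with the highest and the 1 with the lowest r. *Clock*, *Csnk1d* and *Csnk1e* were named after their values were seen. The single results of some genes that this rule takes are not reported here.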

Additional observations from a re-analysis of the deposited data

How the results depend on the processing

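The number of repressors called at 1, 3, 10 and 30 µg/kg (4, 6, 7 and 7) stayed within 1.5 times under DESeq2, upper-quartile or library-size scaling, no filter, no fold limit, fits of only the 6 mice compared and the fit without mouse 14. With index use as a covariate it was 1, 1, 3 and 6. Leaving out in turn each of the 6 mice of a contrast gave 1 to 2, 3 to 6, 6 to 7 and 7. The share of all genes called in those fits is not given here. With the covariate, *Per1* (-0.56) and *Bhlhe40* (-0.16) at 1 µg/kg and *Bhlhe40* at 3 µg/kg (-0.12) changed sign on the log2 scale, none of them called. So did, among leave-one-out values, *Per1* at 1 µg/kg (-0.11 to 0.32, below 0 without mouse 43 or 44) and *Bhlhe40* at 1 µg/kg (-0.18 to 0.16, below 0 without mouse 2 or 43). *Bhlhe41* did so at 3 µg/kg (-0.082 to 0.44, below 0 without mouse 4) and at 30 µg/kg (-0.18 to 0.51, below 0 without mouse 4 or 67). The cause was not tested, and the covariate was set by mouse 41 against mice 43 and 44 alone. No paired analysis was possible because each mouse was given a single dose.

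Within-dose r with *Arntl*, leaving out each mouse in turn, ran from -0.80 to 0.10 for *Per1* (0.10 without mouse 14), -0.75 to -0.29 for *Per2*, -0.90 to -0.64 for *Per3*, 0.66 to 0.86 for *Cry1*, -0.39 to -0.16 for *Cry2*, -0.86 to -0.51 for *Cipc*, -0.86 to -0.59 for *Ciart*, -0.56 to -0.0028 for *Bhlhe40* and -0.19 to -0.01 for *Bhlhe41*. *Per3*, *Cipc* and *Ciart* passed in all 27 of these, whereas *Cry1* missed without mouse 9, 11 or 14. In the first index use alone the r of *Per2* (-0.76), *Per3* (-0.93), *Cry1* (0.89), *Cipc* (-0.88) and *Ciart* (-0.84) missed the threshold, as did *Per2* (-0.38), *Per3* (-0.60) and *Cry1* (0.55) in the second. Without the 3 mice of 1 µg/kg, *Per1* (-0.82) and *Bhlhe40* (-0.56) passed and *Cry1* (0.77) missed. Without mice 9 and 14, *Per2* (-0.29) and *Cry1* (0.65) missed, and *Per1* (0.14) and *Bhlhe40* (0.015) changed sign. Fewer mice limit each of these tests. At 1 to 8 counts per mouse from vehicle to 0.3 µg/kg, apart from mouse 14, depth limits *Ciart*.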
